A study of Mus musculus with 6 samples.

Results

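The genes described here are 36 cell cycle genes of the mouse, picked by name from 32285 genes in the expression matrices. They comprise 20 mitotic genes, 12 S-phase genes and 4 genes that dividing cells carry at high levels but that many resting cells also express (H2afz, Stmn1, Hmgb2 and Tuba1b, called broadly expressed below). They were measured in single cells of the left quadriceps of male wild-type C57BL/6 mice aged 2 to 3 months, in a model of volumetric muscle loss, in which a piece of muscle is removed. The 3 groups were uninjured muscle, a subcritical defect of 2 mm and a critical defect of 3 mm, all sampled at day 7. Each group was 1 library of droplet-captured cells (10x 5′ chemistry) from 4 animals, whose cells were marked with antibody hashtags and pooled before capture. Group, pool and capture lane were therefore the same thing and cannot be told apart.

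A dividing cell copies its DNA in S phase and separates the copies in mitosis, and each step has its own transcripts. The Mcm genes encode the ring-shaped helicase that opens DNA, Pcna the clamp that holds the polymerase on its template, Tyms, Rrm1, Rrm2 and Tk1 enzymes that supply nucleotides, and Hells a chromatin remodeller. Of the mitotic genes, Cdk1, Ccnb1, Ccnb2 and Ccna2 encode the kinase that drives entry into mitosis and its cyclins. Plk1, Aurka, Aurkb and Pbk encode kinases, Bub1 and Bub1b checkpoint proteins, and Ube2c the enzyme that marks cyclins for destruction. Cenpa, Cenpe and Cenpf encode kinetochore and centromere proteins, Birc5 a partner of Aurkb, Tpx2, Kif11 and Nusap1 spindle proteins, Top2a the enzyme that untangles DNA and Mki67 the protein that coats mitotic chromosomes. In injured muscle, division is well known in muscle progenitors, in fibro-adipogenic progenitors (FAPs, the resident stromal cells) and in endothelium and macrophages.

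The promoters of these genes carry different letters according to phase, which is why a few of them are shown before the expression values. RefSeq promoters (GRCm38.p6, 250 bases before to 50 after a gene's start) matched 30 of the 36 genes, and both strands were searched. The cell cycle homology region, CHR, was searched as TTTGAA or TTCGAA, the CCAAT box as CCAAT, and the E2F site as TTTCCCGC, TTTCGCGC, TTTGCCGC or TTTGGCGC. The CHR letters stood in 12 of 16 matched mitotic promoters (75%) and in 2 of 11 S-phase promoters (18.2%), against 19.2% of all 32851 promoters. The E2F letters stood in 1 of 16 mitotic promoters and in 5 of 11 S-phase promoters (45.5%), against 2.26% of all. CCAAT stood in 14 of 16 and 8 of 11, against 37.4% of all. One of the mitotic promoters, that of Cdk1, held all of these. TTCGAA reads the same on both strands, and a letter match is not evidence of binding.

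The 150 bases before the start of 3 mitotic and 3 S-phase genes follow, 5′ to 3′ on the gene's own strand, with every match to the searched letters in capitals. They are shown because Cdk1, Top2a and Ube2c recur in the values below, Mcm6 and Mcm5 are S-phase promoters with E2F letters, and Tk1 is an S-phase gene with none of these letters in this stretch. Their places are chr10:69352913-69353062 (Cdk1, minus strand), chr11:99024190-99024339 (Top2a, minus strand), chr2:164769779-164769928 (Ube2c, plus strand), chr1:128359706-128359855 (Mcm6, minus strand), chr8:75109359-75109508 (Mcm5, plus strand) and chr11:117826015-117826164 (Tk1, minus strand).
Cdk1: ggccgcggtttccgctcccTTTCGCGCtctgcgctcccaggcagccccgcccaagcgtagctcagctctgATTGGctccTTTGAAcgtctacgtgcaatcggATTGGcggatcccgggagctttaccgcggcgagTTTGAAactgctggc
Top2a: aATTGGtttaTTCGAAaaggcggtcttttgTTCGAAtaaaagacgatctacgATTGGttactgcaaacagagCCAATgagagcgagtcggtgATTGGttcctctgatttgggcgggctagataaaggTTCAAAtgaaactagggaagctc
Ube2c: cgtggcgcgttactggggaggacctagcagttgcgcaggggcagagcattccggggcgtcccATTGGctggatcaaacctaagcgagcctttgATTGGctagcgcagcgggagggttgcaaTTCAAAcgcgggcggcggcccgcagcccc
Mcm6: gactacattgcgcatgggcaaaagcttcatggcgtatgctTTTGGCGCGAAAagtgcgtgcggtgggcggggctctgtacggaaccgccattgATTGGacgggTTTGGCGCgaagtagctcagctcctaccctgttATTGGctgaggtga
Mcm5: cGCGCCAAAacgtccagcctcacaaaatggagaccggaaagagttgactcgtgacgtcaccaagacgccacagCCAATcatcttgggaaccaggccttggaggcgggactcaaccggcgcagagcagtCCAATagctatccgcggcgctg
Tk1: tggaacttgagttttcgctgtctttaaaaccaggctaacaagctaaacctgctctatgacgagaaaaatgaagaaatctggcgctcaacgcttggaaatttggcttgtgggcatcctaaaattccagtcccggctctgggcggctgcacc
In the 3 lines of mitotic genes, the capitals in Cdk1 are 1 E2F match, 2 CCAAT boxes and 2 CHR matches. Top2a has CCAAT boxes and CHR letters only, as has Ube2c. Mcm6 and Mcm5 have E2F letters and CCAAT boxes and no CHR letters.

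The libraries held 2195 (uninjured), 3071 (subcritical) and 3161 (critical) cell barcodes with 5681346, 4954129 and 7138662 UMIs, the unique molecules counted per gene. After filtering, 2172, 2856 and 3096 cells were used, of which 36.6%, 35.9% and 32.5% could be given to 1 animal by hashtag. Between 10 and 16 barcodes were shared by any pair of libraries. Cells were clustered without the cell cycle genes, to lessen the part of division in the clusters, and a cluster was named only from marker genes. The markers detected in at least 10% of cells of the class were 7 of 7 for endothelial-like, 8 of 8 for macrophage-like, 8 of 8 for FAP-like, 7 of 7 for tenocyte-like, 8 of 8 for mural-like and 7 of 7 for myogenic cells. A cell was counted as mitotic when at least 2 of the 20 mitotic genes had a UMI, and as S-phase when at least 2 of the 12 S-phase genes had one. Shares of mitotic and S-phase cells are of cells with at least 1000 UMIs, thinned to 1000, because dividing cells hold more RNA. Their median was 3016.5 UMIs, against 1260 in cells with no mitotic and no S-phase gene. Cells under 1000 UMIs were left out, so these are shares of the deeper cells. Median UMIs per barcode were 1816, 1206 and 1608 in the uninjured, subcritical and critical libraries. Intervals are exact 95% intervals and cover counting error only.

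Dividing cells sat in different lineages in the 3 groups. In uninjured muscle, 49 of 1690 cells (2.90%) were mitotic, in the subcritical defect 172 of 1772 (9.71%) and in the critical defect 185 of 2243 (8.25%). Of the 49 in uninjured muscle, 29 were in an unnamed cluster with genes of blood precursors (cluster 9), 10 were neutrophil-like and 5 B-cell-like. Another 4 were endothelial-like and 1 was in an unnamed cluster, and none of the FAP-like, mural-like, macrophage-like, tenocyte-like or myogenic cells was mitotic. Of the 172 in the subcritical defect, endothelial-like cells made up 40 (23.3%), macrophage-like cells 34 (19.8%) and FAP-like cells 25 (14.5%). Of the 185 in the critical defect, macrophage-like cells made up 63 (34.1%), FAP-like cells 42 (22.7%) and endothelial-like cells 20 (10.8%). These are makeups of 1 library a group, with no replicate check, and they move with how many cells of each class were captured.

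Within each class the share of mitotic cells removes that dependence. Endothelial-like cells went from 0.402% in uninjured muscle (4 of 994, interval 0.110% to 1.03%) to 14.1% in the subcritical defect (40 of 284, 10.3% to 18.7%) and 5.56% in the critical defect (20 of 360, 3.43% to 8.45%). Without thinning, and with the shallower cells kept, 8 of 1334 uninjured, 65 of 613 subcritical and 34 of 642 critical cells were mitotic. The class was made of different clusters in the groups: cluster 2, with capillary genes, held 742 of 1334 uninjured, 13 of 613 subcritical and 52 of 642 critical cells, and cluster 0 held 181, 372 and 376. Macrophage-like cells were at 6.54% in the subcritical (34 of 520, 4.57% to 9.02%) and 11% in the critical defect (63 of 573, 8.55% to 13.8%). FAP-like cells were at 4.53% (25 of 552, 2.95% to 6.61%) and 5.87% (42 of 715, 4.27% to 7.86%). Neither of these classes could be sized well in uninjured muscle, where by the limit of 3 counts, used for every count of 0, 0 of 20 macrophage-like cells allows a share of up to 15% and 0 of 150 FAP-like cells one of up to 2%. Myogenic cells had the highest share of the 6 classes given here, with wide intervals: 24.6% (14 of 57, 14.1% to 37.8%) and 15.9% (14 of 88, 8.98% to 25.2%). Mural-like cells, which surround vessels, were at 9.28% (9 of 97, 4.33% to 16.9%) and 7.78% (13 of 167, 4.21% to 12.9%), against 0 of 205 in uninjured muscle, which allows up to 1.46%. Tenocyte-like cells were at 9.82% (11 of 112, 5.01% to 16.9%) and 11.3% (19 of 168, 6.95% to 17.1%). The counting intervals of the 2 injured libraries stood apart for endothelial-like cells alone among these 6 classes.

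**Figure D1:**
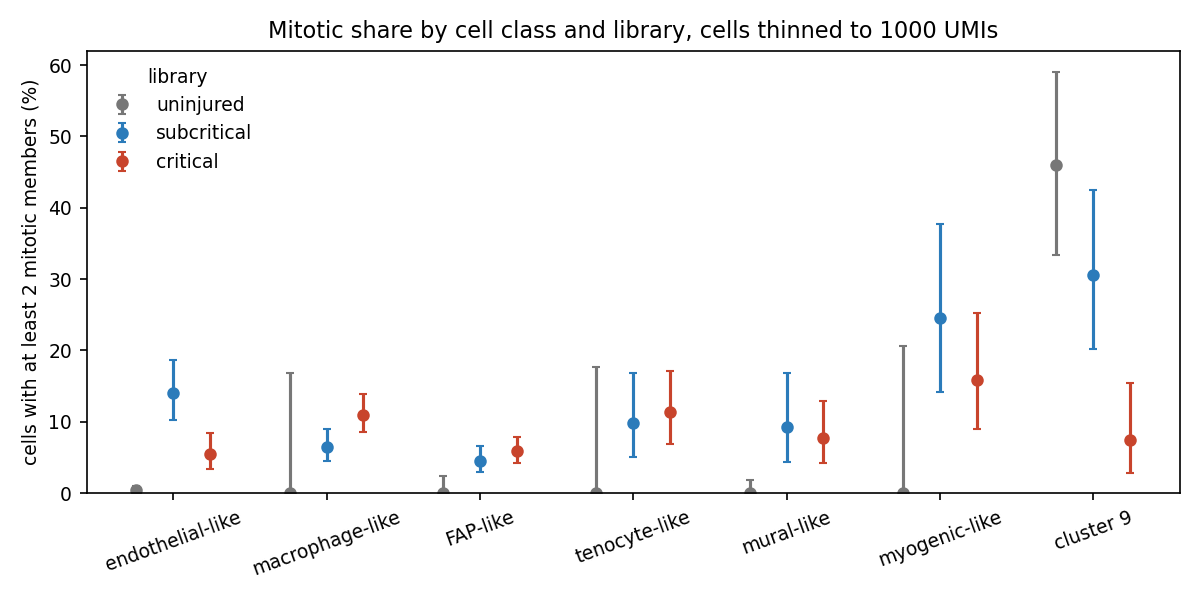
Percentage of cells with at least 2 of 20 mitotic genes (y axis) by cell class (x axis) in the 3 libraries. Only cells with at least 1000 UMIs were used, thinned to 1000, and bars are exact 95% intervals of counting error. Endothelial-like cells reach 14.1% in the subcritical and 5.56% in the critical library, while macrophage-like cells are at 6.54% and 11%.

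Most members kept to the phase of their list within single cells. Each gene was left out of the definition of the cells it was read in, and cells of all classes and libraries were pooled, so the shares are descriptions. Cenpa was seen in 55.3% of cells that were mitotic and not S-phase, in 4.72% of those that were S-phase and not mitotic, and in 2.04% of cells that were neither. Cenpf was seen in 38.2% of the mitotic-only and 0.299% of the S-phase-only cells, and Ube2c in 42.9% and 3.82%. Mcm6 was the reverse, at 4.44% of mitotic-only and 26.3% of S-phase-only cells, as were Mcm3 (6.22% and 22.3%) and Hells (1.35% and 14.8%).

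The nucleotide-supply genes departed from the other S-phase genes. Tk1 was seen in 58.3% of cells positive for both phases, in 15.6% of mitotic-only cells and in 4.36% of S-phase-only cells, and Rrm2 in 40.5%, 9.79% and 3.36%. Tyms (50.8%, 16.6% and 13.1%) and Rrm1 (49.5%, 18.6% and 13.8%) lay between these and the Mcm genes. Every mitotic gene but Cenpa (51.9% and 55.3%) was seen more often in cells positive for both phases than in mitotic-only cells. The lean was wide for Cdk1 (57.1% and 19.2%), Bub1 (19.3% and 4.55%), Aurkb (35.8% and 11.9%) and Pbk (26.9% and 8.26%). Of the broadly expressed genes, H2afz, a histone variant, had a UMI in 36.8% of cells that were neither, and Tuba1b, a tubulin, in 15.9%. No share for free RNA was measured, so a UMI in these cells is detection and not shown to be expression. Stmn1, which destabilises microtubules, was the sharpest of the 4 in the pooled cells, in 85.6% of both-phase cells and 3.96% of cells that were neither. Glial-like cells departed from this. Without thinning, 53.6% of 110 uninjured glial-like cells had a UMI of Stmn1 and 4.55% had one of any mitotic gene.

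**Figure D2:**
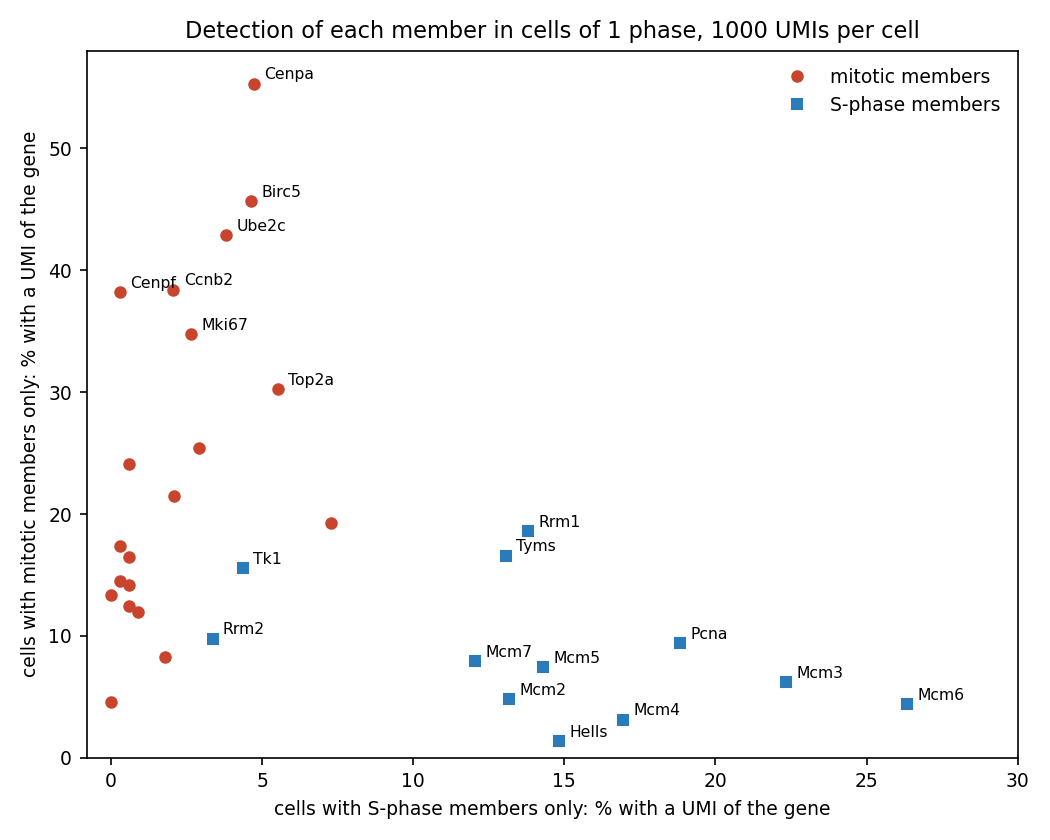
Each point is 1 of the 20 mitotic (circles) or 12 S-phase genes (squares), placed by the percentage of S-phase-only cells (x axis) and of mitotic-only cells (y axis) with a UMI of it, the gene itself left out of the definition of the cells. Cenpa stands at 55.3% of mitotic-only and 4.72% of S-phase-only cells, Mcm6 at 4.44% and 26.3%, and Tk1 at 15.6% and 4.36%, apart from the other S-phase genes.

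In the endothelium, which lines vessels, both injured groups had higher summed mitotic and S-phase levels than uninjured muscle, and the subcritical group had the highest. Tagged cells sufficed (at least 20) in 4 uninjured, 2 subcritical and 2 critical animals, with 32 to 260 cells and 70161 to 493435 UMIs each. The p-values measure the spread between hashtagged animals that were captured in 1 pool a group. The summed CPM (UMI counts scaled to the same class total) of the mitotic genes was 35.6, 36.5, 37.6 and 271.8 in uninjured animals, 762.0 and 1683 in subcritical animals, and 420.8 and 413.3 in critical animals. The groups did not overlap, and 1 uninjured animal was far above the other 3. The summed S-phase CPM was 249.2, 182.4, 164.4 and 300.4 in uninjured animals, 776.1 and 743.8 in subcritical animals and 444.8 and 541.6 in critical animals, again without overlap. The broadly expressed sum differed in this: it was 700.0, 725.5, 671.6 and 913.0 in uninjured, 2074 and 2195 in subcritical, and 625.2 and 1311 in critical animals, so that 1 critical animal lay below every uninjured one.

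The share of mitotic endothelial-like cells by animal followed the same order. It was 0%, 0%, 0% and 0.667% in uninjured animals, 13.3% and 25.8% in subcritical animals, and 4.17% and 7.14% in critical animals. The critical mean was lower than the subcritical mean by 13.9 percentage points (5.65% ± 2.10 against 19.6% ± 8.82, SD, n = 2 and 2), with a two-sided exact permutation p of 0.333, the smallest this design allows (Benjamini-Hochberg adjusted over 8 share tests, 0.444). Against uninjured animals the difference was 19.4 points for the subcritical and 5.49 points for the critical group, each with an exact permutation p of 0.0667, again the smallest possible (adjusted 0.133). Without thinning and with at least 10 cells an animal, a setting chosen after seeing the data, 3 animals a group gave 6.41% ± 1.0 against 11.2% ± 12.1, which overlapped (difference -4.80, exact permutation p = 0.7). With a stricter hashtag rule the difference was -5.74 points, with 1 subcritical animal left.

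**Figure D3:**
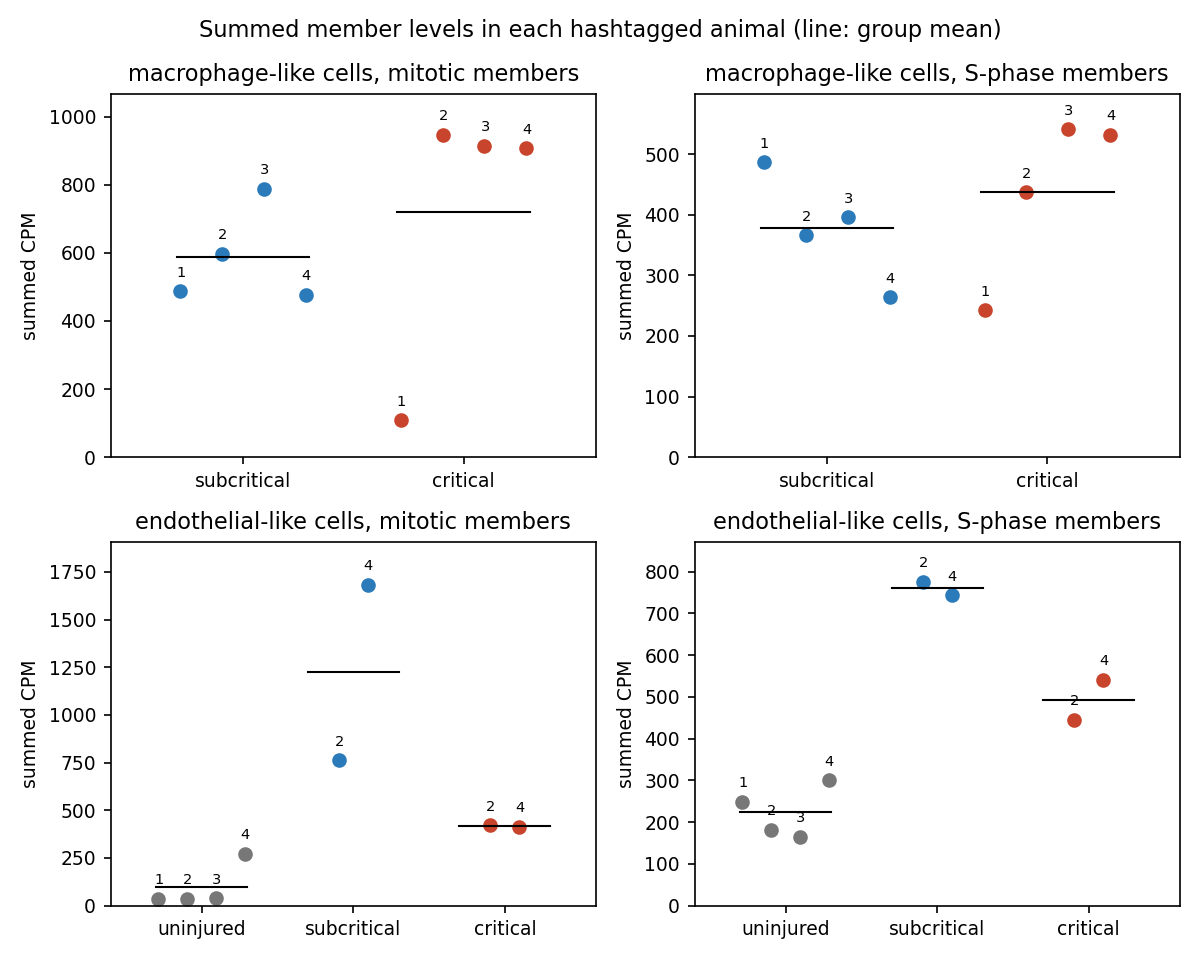
Summed CPM of the mitotic (left) and S-phase genes (right) on the y axis in each hashtagged animal (points with the animal's number), for macrophage-like (top) and endothelial-like cells (bottom) by group, with the group mean as a line. In endothelial-like cells the 2 subcritical animals (762.0 and 1683 for mitotic genes) lie above the 2 critical animals, and in macrophage-like cells 1 critical animal (108.6) lies far below the other 3.

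Gene by gene, the low depth of these sums let 1905 genes be tested, among them Tyms and the 4 broadly expressed genes and none of the 20 mitotic genes. H2afz was at 367.8, 368.8, 338.2 and 469.6 CPM in uninjured animals, 1101 and 1049 CPM in subcritical animals, and 396.8 and 612.9 CPM in critical animals. The subcritical animals stood above all others, and the critical animals overlapped with the uninjured ones. Stmn1 was at 11.9, 52.7, 18.8 and 59.6 CPM in uninjured, 381.0 and 390.2 in subcritical, and 12.0 and 128.3 in critical animals, with the 2 critical animals far from each other. The filter on low counts keeps a gene that is high enough in as few animals as the smallest group has. Stmn1 and Tyms could thus enter the test through the subcritical animals alone, so their calls are partly set by that filter.

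Critical against subcritical, H2afz fell by 1.14 on the log2 scale (SE 0.23, edgeR quasi-likelihood adjusted p = 0.0173) and Stmn1 fell by 2.58 (SE 0.58, adjusted p = 0.0324). These were 2 of 5 members tested, beside 0.945% of all genes called in either direction (0.630% lower). The fall of Stmn1 carries the limit of the filter given above. Hmgb2, a chromatin protein, had a log2 difference of -1.56 (adjusted p = 0.0813), Tyms -1.21 (0.519) and Tuba1b -0.40 (0.779), none past the threshold. No member was called without subcritical animal 2, without subcritical animal 4 or without critical animal 2, fits that leave 1 animal in an arm and assume that it varies like the other groups. With uninjured animal 1 left out, 1 was called.

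Subcritical against uninjured, 4 of the 5 rose, beside 17.1% of all genes called (9.87% higher). As Stmn1 and Tyms could be tested through the subcritical animals alone, this count does not measure the members as a set. Stmn1 rose by 3.14 (SE 0.41, edgeR adjusted p = 4.86e-06), Tyms by 2.44 (SE 0.50, 0.0011), Hmgb2 by 1.72 (SE 0.30, 0.000223) and H2afz by 1.50 (SE 0.18, 1.22e-06). Tyms, the thymidylate synthase, was at 59.3, 34.5, 23.5 and 31.0 CPM in uninjured animals and at 211.7 and 146.3 in subcritical animals. Critical against uninjured, which uses the same uninjured animals, 0 of the 5 were called by edgeR or by DESeq2 and 0 had an unadjusted p under 0.05, beside 9.66% of all genes called. The differences were 1.23 for Tyms (edgeR adjusted p = 0.236) and 0.36 for H2afz (0.320).

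At library level all endothelial-like cells could be used, and the mitotic sum was 175.4, 852.8 and 540.4 CPM in the uninjured, subcritical and critical libraries. The uninjured value rested on few cells, as 5 of 1334 cells held 76.1% of its mitotic UMIs and the sum without them was 42.4 CPM. In the subcritical and critical libraries 5 cells held 22.4% and 51.3%. Without the 10 richest cells of each library, the sums were 561.5 CPM in the subcritical and 187.0 CPM in the critical library, a log2 fold of -1.58. Those cells were picked by the UMIs compared, from 103 and 77 cells with a mitotic UMI, so that fold is no check of the difference. Critical against subcritical, 13 of 18 mitotic genes with a fold were at least 1.5-fold lower, beside 6.13% of all genes, and the median log2 fold was -0.74 (all genes 0.04). Pbk (-2.10), Nusap1 (-1.46) and Mki67 (-1.31) were lowest, while Ube2c (0.04) and Kif11 (0.49) were not lower. Of the S-phase genes 4 of 12 were at least 1.5-fold lower, led by Tk1 (-1.54, 56 against 24 UMIs), and the median was -0.42. These library folds have no replicate check.

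The injured endothelium's dividing cells were unequal between clusters. Cluster 0, led by Aplnr and Prnd, genes of sprouting vessels, was mitotic in 1.54%, 18.1% and 8.12% of its cells in uninjured, subcritical and critical muscle. Cluster 8, with genes of veins, was at 0%, 11.3% and 1.41%. The S-phase genes were less rare than the mitotic genes in uninjured endothelium: 1.21% of thinned cells were S-phase, and without thinning 73 of 1334 cells had at least 2 S-phase genes and fewer than 2 mitotic genes. In those 73, Mcm6 was seen in 43.8%, Pcna in 42.5% and Mcm3 in 35.6%, while Rrm2 was seen in 2.74% and Tk1 in 0 cells. All of these genes also helped to choose the 73 cells, so these shares only describe the choice. They were deep cells (median 3639 UMIs against 1568.5 for the class), and the part of depth in this pattern was not tested.

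In macrophages, the phagocytes that clear debris and direct repair, the critical group had more mitotic transcripts in 3 of 4 animals and very few in the other. The summed mitotic CPM was 486.7, 597.1, 787.6 and 477.4 in subcritical animals and 108.6, 946.9, 914.4 and 906.5 in critical animals. The groups overlapped only through critical animal 1. Group means were 587 ± 144 and 719 ± 407 (SD, n = 4 each). The S-phase sum was 378 ± 92.0 against 438 ± 139, and the broadly expressed sum 1549 ± 215 against 1552 ± 373. Each animal had 75 to 266 tagged cells.

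The share of mitotic macrophage-like cells was 5.97%, 6.82%, 9.01% and 5.56% in subcritical and 0%, 10.8%, 14.9% and 11.6% in critical animals. The means, 9.32% ± 6.46 against 6.84% ± 1.54, differed by 2.48 points (exact permutation p = 0.514, adjusted 0.571, n = 4 each). Without critical animal 1, in which 0 of 47 thinned cells were mitotic, the critical mean was 12.4%, and the exact permutation p was 0.0286 (adjusted 0.107), the smallest that 3 against 4 animals allow. That animal was singled out by the share under test, and without it the groups do not overlap. The p-value was thus fixed in advance and is not evidence of a difference. The S-phase share did not separate the groups (6.79% ± 4.65 against 5.21% ± 2.68, exact permutation p = 0.571).

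Of the 36 members, 17 could be tested in macrophage-like cells and 0 were called by edgeR, beside 1.01% of all 4240 genes. DESeq2 also called 0. By edgeR 4 had an unadjusted p under 0.05, all higher in the critical group. Mki67 was at 36.1, 19.3, 29.9 and 17.4 CPM in subcritical animals and at 0, 66.7, 110.1 and 65.2 in critical animals, so that 3 critical animals lay above all subcritical ones and 1 below. Its log2 difference was 1.44 (SE 0.43, edgeR adjusted p = 0.167). Without critical animal 1 it was 1.60 and called (edgeR adjusted p = 0.000917). As that animal was singled out by its low mitotic values, this call is not evidence of a difference.

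The other 3 were Cdk1 (0.76, SE 0.32, edgeR adjusted p = 0.398), Birc5 (0.52, SE 0.25, 0.485) and Pcna (0.50, SE 0.24, 0.476). Birc5 was at 42.1, 61.0, 79.8 and 42.3 CPM in subcritical and 25.1, 88.2, 93.4 and 99.8 CPM in critical animals. Ube2c, the most abundant mitotic gene of the class, did not follow: it was at 42.1, 105.9, 169.5 and 99.5 CPM in subcritical and 8.35, 178.6, 70.1 and 128.3 CPM in critical animals, with a log2 difference of 0.00. The 8 tested mitotic genes had positive differences (median 0.48), as had 4 of 5 S-phase genes (0.27) and 2 of 4 broadly expressed genes (0.05), beside a median of 0.00 over all genes. At library level 9 of 20 mitotic and 3 of 12 S-phase genes were at least 1.5-fold higher in the critical library, beside 12.0% of all genes.

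Division was unequal between the 3 macrophage-like clusters. Cluster 7, led by Mmp12 (a matrix-degrading protease), Spp1 (osteopontin) and Gpnmb, was mitotic in 14.1% ± 6.23 of cells (mean and SD over 8 injured animals). Cluster 3, rich in MHC class II genes, was at 4.56% ± 4.90, and cluster 5, with Mrc1 and Ccl8, at 5.43% ± 5.35. Cluster 7 was higher than cluster 3 in 7 of 8 animals and higher than cluster 5 in 7 of 8 (paired exact permutation p = 0.0156 for each, adjusted over 3 pairs 0.0234). The remaining animal, critical animal 1, was a tie, with 0 of 12 cells mitotic in cluster 7, 0 of 20 in cluster 3 and 0 of 15 in cluster 5. Clusters 3 and 5 were not told apart (exact permutation p = 0.578, mean difference -0.866 points). At library level, cluster 7 was mitotic in 14.9% of cells in the subcritical and 16% in the critical library, cluster 3 in 2.54% and 8.37%, and cluster 5 in 2.59% and 9.04%. The comparison of clusters was chosen after the values were seen, and whether transcripts that go with division still shaped the clusters was not tested.

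Transcripts of antigen presentation made up a far smaller part of the UMIs in dividing macrophage-like cells than in cells without detected members of either phase. The values are CPM, and transcripts per cell were not compared. Cells with at least 2 mitotic genes were compared with cells that had no mitotic and no S-phase gene, within each of 7 injured animals (7 to 31 against 68 to 188 cells each). H2-Aa, an MHC class II chain, was at 559.6, 331.4, 2314 and 850.2 CPM in the dividing cells of the subcritical animals and at 1780, 513.1 and 887.1 CPM in those of critical animals 2 to 4. In the other cells of the same animals it was at 6487, 5698, 5731, 6487, 6077, 7614 and 4261 CPM. Every animal was lower in its dividing cells, and the ranges did not overlap.

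Of 24 macrophage state genes listed, 17 could be tested and 14 were called, 9 lower and 5 higher, beside 42.8% of all 2937 genes (22.2% lower, 20.6% higher). The MHC class II chains H2-Eb1, H2-Ab1 and H2-Aa fell by 3.14 (SE 0.47, edgeR adjusted p = 0.00188), 2.90 (0.00104) and 2.79 (SE 0.40, 0.00153), and the invariant chain Cd74 fell by 2.97 (0.00183). Csf1r, the receptor for the macrophage growth factor, fell by 1.80 (edgeR adjusted p = 2.96e-16), from 924.5 to 1214 CPM in other cells to 170.0 to 583.8 CPM in dividing cells. Mrc1, a scavenging receptor, fell by 1.50, the complement gene C1qa by 1.26, the chemokine receptor Cx3cr1 by 1.23 and the macrophage marker Adgre1 by 1.05.

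Among the genes that rose, Mmp12 rose by 2.89 (SE 0.38, edgeR adjusted p = 0.000134). It was higher in the dividing cells of 6 of 7 animals and lower in critical animal 3 (53.1 against 75.8 CPM). Fabp5, a fatty acid carrier, rose by 0.94, Gpnmb by 0.97, Cd9 by 0.87 and Spp1 by 1.34 (adjusted p = 0.0298). The differences of Cd68 (0.15), Trem2 (0.17) and Folr2 (0.35) did not pass the threshold. Dividing cells were drawn to 57.2% from cluster 7, against 15.9% of the other cells, and were deeper (median 3036.5 against 1059.5 UMIs).

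Cluster was therefore held in a setting and depth narrowed in another, both chosen after seeing the data. Dividing cells stayed deeper in both. Their median UMIs per animal were 3493 to 5694 within cluster 7, against 1518.5 to 2278.5 in other cells. With cells of at least 1500 UMIs they were 3294 to 5159, against 1797 to 2239. The part of depth in the differences was not tested. Within cluster 7 alone, where 270 of 978 genes were called, 7 state genes were called. The MHC class II genes and Cd74 (H2-Aa -1.93, edgeR adjusted p = 0.0125), Csf1r (-1.18) and C1qa (-1.02) were still lower and Mmp12 still higher (1.92, 7.55e-06), but Spp1 (0.58), Gpnmb (0.55), Fabp5 (0.23), Cd9 (0.32) and Adgre1 (-0.43) were no longer called, each with a fold nearer to 0 and with fewer cells. Mrc1 and Cx3cr1 could not be tested there. With cells of at least 1500 UMIs alone, Spp1 and Gpnmb were no longer called. Spp1 also lost its call on leaving out any of 5 animals (adjusted p 0.0555 to 0.0642).

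**Figure D4:**
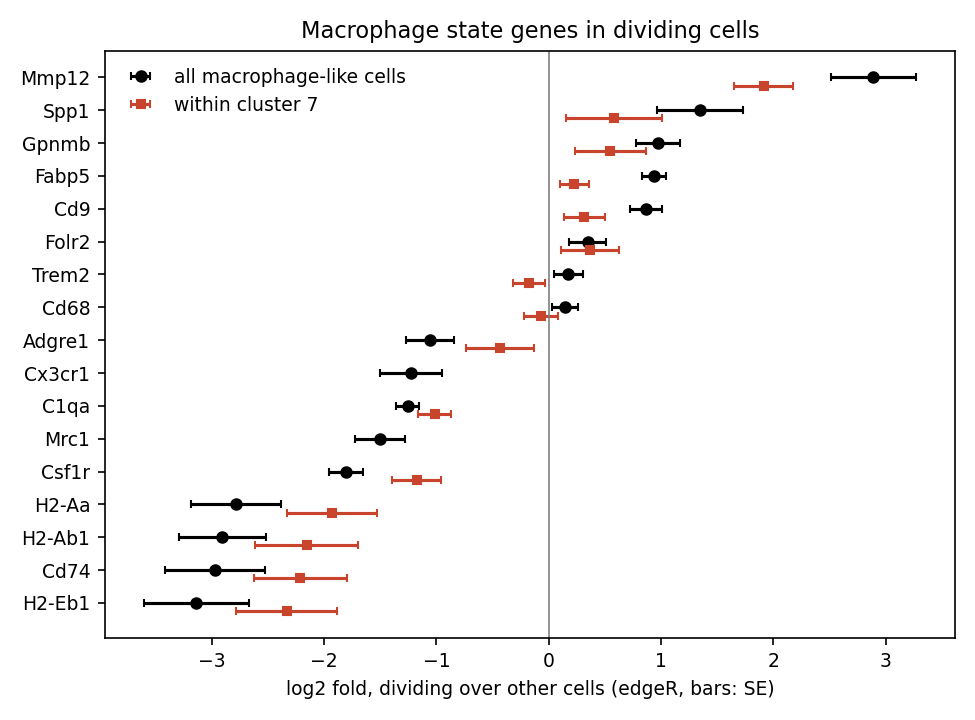
Log2 fold with its SE (x axis) of the 17 tested state genes (y axis) in dividing over other macrophage-like cells, with 7 injured animals as blocks, over all 3 clusters (black circles) and within cluster 7 alone (red squares, where 15 genes were tested). H2-Aa is at -2.79 and -1.93 and Mmp12 at 2.89 and 1.92, while Fabp5 lies closer to 0 within cluster 7 than over all clusters.

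FAP-like cells carried few hashtags (2.52% to 4.92% of cells), so their values are library sums with no test. The mitotic sum was 12.1 CPM in uninjured muscle, from 8 UMIs, and 397.5 and 542.6 CPM in the subcritical and critical libraries, log2 folds over uninjured of 4.93 (3.99 to 6.01) and 5.37 (4.45 to 6.45). The S-phase sum was higher than in uninjured muscle by log2 1.37 and 1.36. Critical over subcritical, the mitotic sum was higher by log2 0.45 (0.31 to 0.59) while the S-phase sum was level (-0.02, -0.19 to 0.16). Of 20 mitotic genes 17 were higher, and 7 were at least 1.5-fold higher, beside 7.14% of all genes, and of 12 S-phase genes 6 were higher. The number of cells in division and the RNA per dividing cell cannot be told apart in these sums.

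The FAP mitotic genes did not move together. Bub1 went from 1 to 20 UMIs (log2 2.42, 0.77 to 3.18), Bub1b from 4 to 25 (1.59) and Ccna2 from 15 to 59 (1.17, 0.39 to 1.99), while Ube2c, the most abundant, went from 107 to 227 (0.35, 0.02 to 0.69). Top2a was level (-0.02), and Mki67 went from 33 to 46 UMIs, which is a fold of -0.24 after division by the class total. In S phase, Rrm2 was lower in the critical library (27 against 23 UMIs, -0.89, -1.68 to -0.10). Of the mitotic FAP-like cells, 20 of 25 and 29 of 42 were in cluster 4, led by Postn and Lrrc15, genes of matrix-producing fibroblasts, which had no cell from uninjured muscle and was mitotic in 6.78% (subcritical) and 6.92% (critical) of cells. Cluster 1 was at 1.95% and 4.39%. The 10 cells richest in mitotic UMIs held 57.6% and 46.5% of the FAP sums, and without them the critical excess was log2 0.78. They were picked by the UMIs compared, from 77 and 133 cells with a mitotic UMI, so that fold is no check of the excess.

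**Figure D5:**
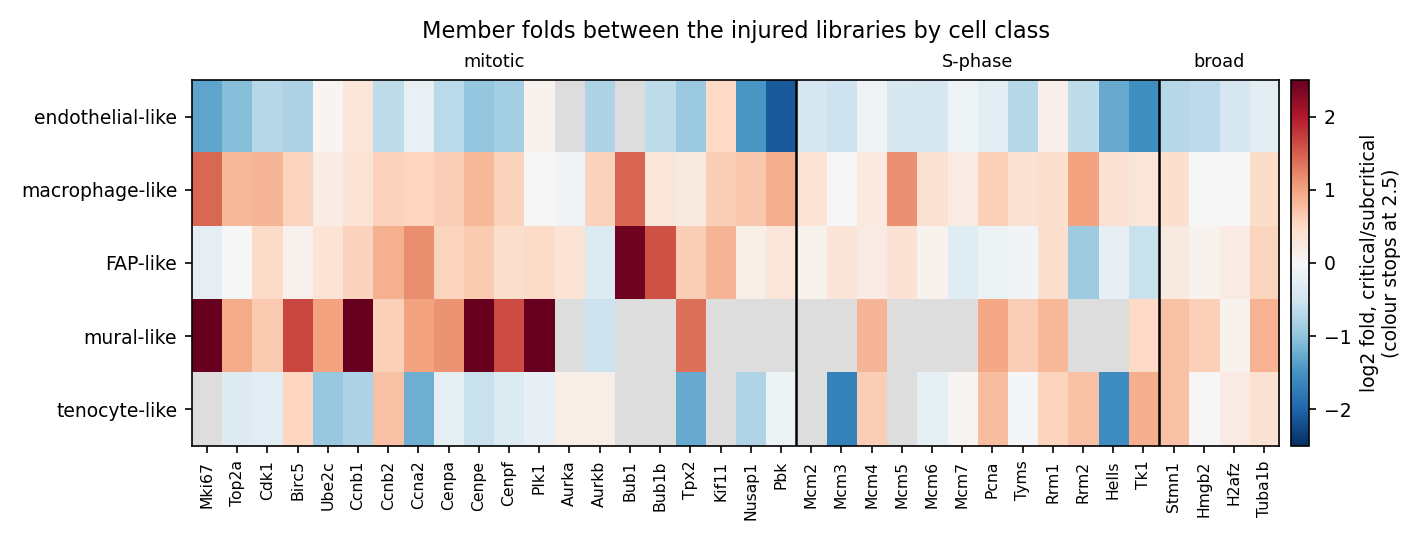
Colour shows the log2 fold of each gene's CPM, critical over subcritical library, for the 36 genes (columns, by phase) in 5 cell classes (rows), from library sums with no test. Red is higher and blue lower in the critical library, colours stop at 2.5, and grey marks genes with too few UMIs. In endothelial-like cells the mitotic genes center on -0.74, in FAP-like cells on 0.48 and in macrophage-like cells on 0.58.

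Mural-like, tenocyte-like and myogenic cells were fewer, and a handful of cells set their sums. In mural-like cells the mitotic sum was 22.5, 558.8 and 1231 CPM in the uninjured, subcritical and critical libraries, and 13 of 14 mitotic genes with a fold were at least 1.5-fold higher in the critical than in the subcritical library, beside 18.0% of all genes. Cenpe had 0 UMIs in the subcritical and 24 in the critical library, at least 4.10-fold higher. Among the deeper, thinned cells the share of mitotic mural-like cells was 7.78% (critical) and 9.28% (subcritical). Without thinning, and with the shallower cells kept, 16 of 220 critical and 9 of 160 subcritical cells were mitotic, the opposite order. In the mural-like sums, 10 cells held 87.9% (critical) and 95.7% (subcritical) of the mitotic UMIs. Without them the log2 fold was 2.64. Tenocyte-like cells had 857.2 CPM in the subcritical and 678.5 in the critical library, but 10 cells held 96.5% and 76.0%. Without them the log2 fold was 2.38. Myogenic cells, the progenitors of muscle fibres, had 1738 CPM in the subcritical and 1619 CPM in the critical library, with 74.9% and 85.9% in 10 cells. Without those cells the myogenic sums were 552.9 and 293.6 CPM, a log2 fold of -0.91. In each class the cells left out were those richest in the mitotic UMIs compared. Cells with a mitotic UMI numbered 19 (subcritical) and 42 (critical) in tenocyte-like cells. They numbered 15 and 32 in mural-like and 27 and 33 in myogenic cells. Leaving out 10 took a larger part of the subcritical ones, so these folds are no check of the direction.

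Cluster 9, unnamed because it mixed Elane, Mpo and Prtn3 (granule proteins of granulocyte precursors) with Ly6c2, Plac8, Nkg7 and Cd209a, had the highest mitotic share in uninjured muscle. It was 46.0% (29 of 63, 33.4% to 59.1%), against 30.6% (22 of 72, 20.2% to 42.5%) in the subcritical and 7.41% (6 of 81, 2.77% to 15.4%) in the critical library. Mki67 was at 413.8, 96.3 and 41.0 CPM and Top2a at 376.0, 165.8 and 51.3 CPM. In the uninjured library Elane was seen in 58.5% of its mitotic cells and 10.5% of the others, Mpo in 58.5% and 7.89%, and Prtn3 in 63.4% and 10.5%. Flt3, a dendritic cell and progenitor receptor, ran the other way (0% against 21.1%). Elane, Mpo and Prtn3 were seen in 36.7%, 33.3% and 40% of the 30 subcritical mitotic cells. In the 13 critical mitotic cells they were at 15.4%, 15.4% and 7.69%, so the dividing cells of the libraries were unlike in these genes. The uninjured cells of this cluster came mostly from 1 animal: 46 of 62 tagged cells and 30 of 32 tagged mitotic cells were from animal 2. In the subcritical library 15 of 21 tagged mitotic cells were from animal 1 (15 of its 32 cells), while animals 2 to 4 had 2 of 24, 2 of 21 and 2 of 37. In the critical library 11 of 109 tagged cells were mitotic. In uninjured muscle animal 2 also gave 103 of 111 tagged neutrophil-like and 22 of 25 tagged B-cell-like cells.

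Dividing neutrophil-like cells had Ltf and Camp more often, and Retnlg less often, than the other cells of their class. Elane, a granule gene of granulocyte precursors, was rare in both (6.45% of 31 mitotic cells and 3.39% of 118 others). Over the 3 libraries, Ltf, a protein of secondary granules, was seen in 96.8% of 31 mitotic cells and in 45.8% of 118 others, Camp in 100% and 60.2%, and Retnlg, a gene of mature neutrophils, in 19.4% and 88.1%. The mitotic cells were 14 of 123 uninjured, 17 of 22 subcritical and 0 of 4 critical neutrophil-like cells. They were not compared within a library, so library and division are mixed in these shares. Among B-cell-like cells, Vpreb3, a gene of B-cell precursors, was seen in 93.3% of 15 mitotic cells and in 52.2% of 23 others, while Vpreb1, another such gene, was seen in 20% and 17.4%. These cells were pooled in the same way, with 10 of 28 uninjured, 5 of 8 subcritical and 0 of 2 critical cells mitotic. The part of blood or marrow cells in the uninjured library's mitotic total was not tested beyond these counts.

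The genes of the G1 phase and the inhibitors of the cycle, lists of 11 and 12 genes, had few calls by animal. In macrophage-like cells 7 G1 genes and 6 inhibitors could be tested, and 0 were called, which at a share of 1.01% over all genes says nothing of the lists. Of the other mitotic genes of the annotation 9 of 46 and of the other S-phase genes 7 of 34 could be tested there, and 0 were called. In endothelial-like cells, 4 of the 11 G1 genes could be tested and 0 were called. Of 4 inhibitors tested, 2 were called against uninjured animals in the subcritical and 1 in the critical group, beside 17.1% and 9.66% of all genes. Cdkn1c, which codes for the kinase inhibitor p57, fell by 1.58 (subcritical, edgeR adjusted p = 0.000269) and by 1.28 (critical, 0.00216) against uninjured animals, and Btg2, an antiproliferative gene, fell by 1.23 in the subcritical group (0.0141). In the library sums Cdkn1c was at 576.6, 138.1 and 181.5 CPM in uninjured, subcritical and critical endothelial-like cells, while in myogenic cells it was at 130.3, 2456 and 2333 CPM and in FAP-like cells at 149.8, 410.5 and 407.3 CPM. Ccnd1, the cyclin that starts the cycle, was at 283.2, 487.7 and 428.5 CPM in the 3 endothelial libraries.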

How the data were processed

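Gene expression and surface antibodies, hashtags included, were measured in 3 libraries. The deposited matrices hold UMI counts per gene or antibody and cell barcode, made by the authors with Cell Ranger 6.0.2, per the file headers. Per the submitters' processing notes, bcl2fastq, Cell Ranger and GRCm39 (mm39) were used.

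A cell needed 200 genes and 500 UMIs or more, and no more than 20% of its UMIs from mitochondrial genes. Hashtag counts were split by a mixture of negative binomials (posterior 0.9), and 22, 45 and 64 cells with several hashtags were removed. The lowest hashtag count called was 2 to 9. Scrublet marked 0, 22 and 3 cells, so it did not work here, and 51, 71 and 77 cells of high doublet score were dropped only in an alternative. Cells were clustered in scanpy 1.11.5 (Python 3.11.15) on 2000 variable genes, 30 components and 15 neighbours at Leiden resolution 0.8, after removal of 116 listed cell cycle genes and 139 genes correlated with them (r above 0.2). Classes were named from marker lists, and the rule for close scores was settled after the clusters were seen.

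UMI counts were summed per animal and class for animals with at least 20 cells and tested over all genes with edgeR 4.0.16 (TMM, filterByExpr, quasi-likelihood, Benjamini-Hochberg threshold 0.05), with DESeq2 1.42.0 as an alternative, in R 4.3.3. Simulated data for critical against subcritical held 4240 macrophage-like and 1905 endothelial-like genes, some of them changed. Of the 4-fold changes, 100% of 91 macrophage-like and 88.3% of 94 endothelial-like genes were recovered. Of the 2-fold changes, 85.2% of 88 and 40.2% of 97 were recovered, with 8 and 7 false calls. The changed genes were drawn over all tested genes, so these shares do not give the power for the members. Shares of cells were compared over animals by exact permutation tests. Classes with few hashtags were compared as library sums, with a pseudocount of 1 CPM, at least 20 UMIs for a gene's fold, and exact binomial intervals. A count of 0 was given a floor of 3 counts. Alternatives were other tools, filters, scalings, thinning depths, hashtag rules, clusterings and leaving out each animal.

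A gene was named with values if it was the most abundant of its phase in a class, passed a test or lay farthest from the median of its phase. The other genes with values, the cluster 9 and blood-lineage genes, the motif search and the detection by phase were chosen after seeing the data. The members and gene lists were chosen with earlier results of these data known.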

Additional observations from a re-analysis of the deposited data

Results flagged for a closer look

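In groups of 4 animals, 4 of 25 values tested had 1 animal farther from the rest than Dixon's 95% limit for its gap over the group's range, and chance alone flags about 1 in 20. In uninjured endothelial-like cells, animal 4 had a summed mitotic level of 271.8 CPM against 35.6 to 37.6 CPM in the other 3. The same animal had the only mitotic endothelial-like cell of that group after thinning, a share of 0.667% against 0% in the others. With 3 animals at 0 any other value would have passed the limit, so that flag rests on 1 cell of 150. In macrophage-like cells of the critical group, animal 1 had a summed mitotic level of 108.6 CPM against 906.5 to 946.9 CPM in the other 3. Birc5 was at 25.1 CPM in that animal against 88.2 to 99.8 CPM in the others. The cause was not tested for any of these.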

How the results depend on the processing

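Of the 36 genes in macrophage-like cells, 0 were called between the injured groups. That became 1 (Mki67) without a filter on low counts (log2 1.42, edgeR adjusted p = 0.00381), with the replicate block (1.38, 0.0355), and without critical animal 1 (1.60, 0.000917), with a range of 0 to 1 over leaving out each animal. In endothelial-like cells, critical against subcritical, 2 were called by edgeR, 1 by DESeq2, 3 with the replicate block, 0 with a hashtag share of 70%, 0 with at least 10 cells per animal, and 0 to 3 on leaving out each animal. Subcritical against uninjured, 4 were called, and 16 without the filter, 10 with the replicate block, 7 with the hashtag share and 4 to 10 on leaving out each animal (7 without subcritical animal 2, 10 without critical animal 2 or critical animal 4). Critical against uninjured, 0 became 1 without the filter. Hashtag numbers do not pair the animals (same-number correlations -0.06 to 0.03). Over leaving out each animal, the difference in mitotic share (percentage points) ran from 0.614 to 5.58 in macrophage-like and from -20.2 to -7.68 in endothelial-like cells. The count of all genes called went from 18 to 7 with the hashtag share (endothelial-like, critical against subcritical), from 326 to 188 with DESeq2 and 112 without subcritical animal 4 (subcritical against uninjured), and from 184 to 112 with DESeq2 (critical against uninjured). Without critical animal 2 or critical animal 4 that last count was 83 and 87.

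Signs changed for 4 endothelial log2 differences, none of them called. Leaving out an injured animal there leaves 1 in its arm, assumed to vary like the other groups. On leaving out each animal, Tuba1b, critical against subcritical, ran from -1.38 to 0.25 (without critical animal 2). Against uninjured, the lowest values came without critical animal 4 and the highest without critical animal 2: Stmn1 ran from -1.83 to 1.50, Hmgb2 from -0.33 to 0.55 and Tuba1b from -0.76 to 0.87. Hmgb2 was also -0.068 without uninjured animal 2 and -0.097 with at least 10 cells per animal. In dividing macrophage-like cells, Cd68 was -0.069 within cluster 7 and -0.10 with cells of at least 1500 UMIs, and Trem2 -0.17 and -0.12. The 14 state genes called became 7 within cluster 7 (13 to 14 over leaving out each animal). The FAP mitotic log2 fold of 0.45 became 0.78 without the 10 richest cells, which were picked by the mitotic UMIs compared. The settings within cluster 7, at 1500 UMIs, without the richest cells, and with unthinned shares at 10 cells were chosen after seeing the data. Except where a setting changed which samples, cells or genes were tested, the cause was not tested. Shallow sums per animal kept all 20 mitotic genes out of the endothelial test.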
